A study of Mus musculus with 18 samples.

Results

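The comparison was made between mouse embryonic stem (ES) cells that carry an inducible, active form of ezrin (iEZR_CA) and wild-type (WT) cells, both at 48 h of exit from naive pluripotency (T48). Its members are the 3 libraries labelled iEZR_CA and the 3 labelled E14 wt whose medium is N2B27 and whose exit time is 48 h, so 6 of the 18 libraries of the series. The remaining 12 libraries hold both lines in 2i+LIF before exit (ESC) and after a day in N2B27 (T24). Polyadenylated RNA was sequenced, and reads were counted per gene. All cells grew on gelatin and left naive pluripotency when the inhibitors and LIF were withdrawn. E14 is an established male ES cell line, and the study's methods name the WT cells as its derivative E14TG2a. iEZR_CA cells are E14 cells with a PiggyBac transposon that drives a phosphomimetic ezrin, together with mCherry, from a doxycycline-inducible promoter. Doxycycline was given to iEZR_CA cells about 16 h before exit and not to WT cells, so the transgene, the drug and any other difference between the lines cannot be told apart. Whether iEZR_CA is a clone or a pool is not given in the sources used here.

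Ezrin, radixin and moesin (the ERM proteins) tie the plasma membrane to the actin cortex beneath it, and phosphorylation of a threonine near their C terminus opens them into the active form. ES cells in 2i+LIF are held in the naive state by inhibitors of MEK and GSK3 and by LIF, which signals through STAT3. After withdrawal, FGF signalling through ERK comes on, the naive transcription factors are switched off, and cells pass through a formative state that resembles the epiblast just after implantation. The study asked whether a fall in membrane tension has a part in this exit, and the comparison at T48 gives the transcriptome of cells carrying active ezrin after 2 days.

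The T48 libraries held 10940752 to 26943997 gene counts, with a median of 24990358.5, and the shallowest was WT replicate 2. Levels are given below as normalized counts, which are read counts divided by a size factor for each library, listed as replicates 1, 2 and 3. Fold changes are on the log2 scale, iEZR_CA over WT, with their standard error (SE) and 3 libraries a line, from edgeR's quasi-likelihood test with Benjamini-Hochberg adjustment over the 18469 genes tested. A gene was called at an adjusted p under 0.05. The labels give no culture or day for a library, so p-values measure the spread between these libraries. Reads set aside for low alignment quality made up 0.525% to 0.612% of the WT libraries and 0.941% to 0.992% of the iEZR_CA libraries, and the part of this in any result was not tested.

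Ezr, the gene the line was built to express, lies on chromosome 17 (6738041 to 6782784, GRCm38). Its level was 10095, 10508 and 9683 normalized counts in WT and 16067, 16393 and 16186 in iEZR_CA. The libraries of the lines did not overlap, and the means of 10096 ± 413 and 16215 ± 165 (SD, n = 3) stood in a ratio of 1.61. The 2-sided exact permutation test gave p = 0.1, the smallest that 3 against 3 libraries allow. In edgeR, the log2 fold change of Ezr was 0.69 ± 0.026 (SE) at T48 (adjusted p = 9.6e-35). It was larger in ESCs, at 1.07 ± 0.025 (SE). Counts per gene do not separate the transgene from the endogenous Ezr. The labelled cell type was present in both lines, since Pou5f1, Sox2, Sall4, Lin28a, Utf1, Cdh1 and Epcam were all detected and their summed level was 79230 to 81260 in WT and 66450 to 67160 in iEZR_CA.

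The lines also differed in the RNA levels of Hprt and of some chromosome regions, and these differences were already there in ESCs. DNA was not measured. Hprt, the purine salvage enzyme on the X chromosome (52988137 to 53021659), had 3333, 3046 and 2876 normalized counts in WT and 11.7, 10.8 and 12 in iEZR_CA. E14TG2a is known as a line that lacks Hprt, so the level in the libraries labelled WT goes against the name the methods give those cells. On chromosome 14, the 269 genes between 50000001 and 80000000 had medians of -0.90 at T48 and -0.93 in ESCs on the log2 scale, with 219 lower and 15 higher at T48. The other 300 genes measured on that chromosome had a median of 0.05. Genes of chromosome 8 had a median of 0.17 in both stages, and the 13 Y-linked genes had a median of 1.29 at T48. Up to the section on processing, genes that lie in the chromosome 14 stretch or on chromosome 8 are marked where their values are first given. Later sections do not mark them. The part of these regions in the differences of such genes was not tested. Some counts and medians below are also given without the genes of chromosomes 8, 14, M and Y. The cause of the regional differences was not tested.

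At T48, 5727 of the 18469 genes tested were higher in iEZR_CA, which is 31.0%, and 5555 were lower, which is 30.1%. The replicates lay close together, with a biological coefficient of variation of 2.98%, and 6224 of the 11282 called genes (55.2%) differed by less than 1.5-fold. Beyond 2-fold, 1446 genes were higher (7.83%) and 1524 lower (8.25%). Beyond 4-fold, 514 were higher and 438 lower. The median over all genes tested was 0.00, and shares of a gene list below are read against these percentages.

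**Figure D1:**
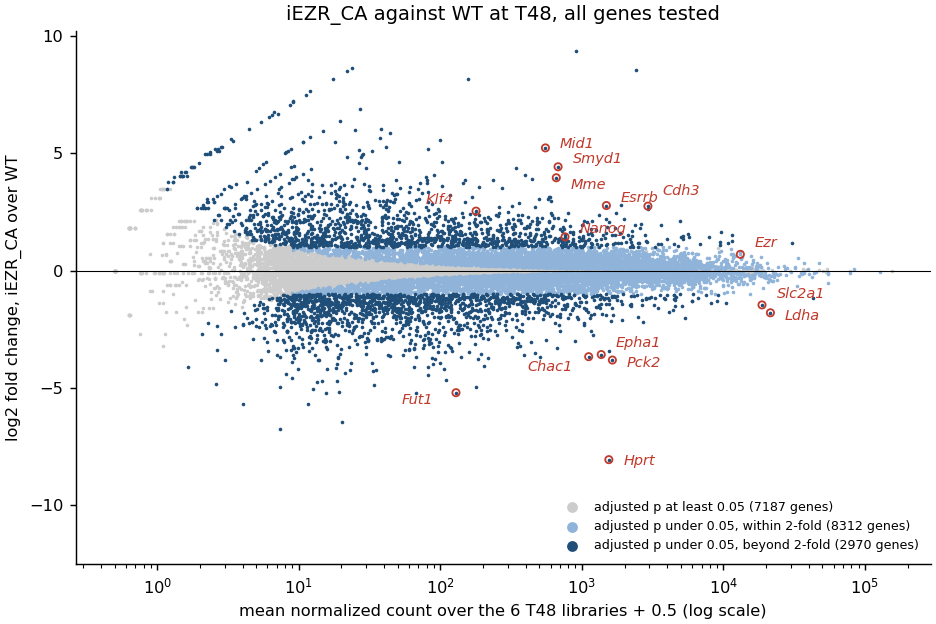
Log2 fold change of iEZR_CA over WT at T48 (vertical) against the mean normalized count over the 6 T48 libraries plus 0.5 (horizontal, log scale), a point for each of 18469 genes. Dark points are the 2970 genes called beyond 2-fold, light blue points the other called genes, grey points those not called, and red rings the genes named in the plot; the called genes spread evenly above and below 0, and Hprt lies lowest among the named genes at -8.06.

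Genes of naive pluripotency were mostly higher in iEZR_CA. Of 18 tested, 15 were higher, 11 of them beyond 2-fold, and 1 was lower, with a median log2 fold change of 1.57. Tcl1, a co-activator of AKT kinase, had 11.6, 17.2 and 16.4 normalized counts in WT and 163.9, 137 and 141 in iEZR_CA, a log2 fold change of 3.34 ± 0.16 (SE; adjusted p = 5e-29, edgeR). The orphan nuclear receptor Esrrb (chromosome 12, 86361117 to 86521628) had 355, 369 and 413 in WT and 2511, 2584 and 2693 in iEZR_CA, a log2 fold change of 2.77 ± 0.040 (SE). Neither gene had a WT library that reached the iEZR_CA libraries. Zfp42 (Rex1), the common reporter gene for exit, had 815, 836 and 810.2 in WT and 4715, 5040.3 and 5383 in iEZR_CA, and it lies on chromosome 8. Klf4, a zinc finger factor, had 51.0, 47.8 and 55.7 against 294, 296 and 324. The homeobox gene Nanog (chromosome 6, 122707489 to 122714633) had 441, 423 and 369.9 against 1069, 1119.5 and 1131. All of these sets of libraries were apart, and in bulk RNA more cells with the naive programme and more RNA per cell cannot be told apart. Gbx2, a homeobox gene that is also on the list, went the other way at 1882, 2126 and 2217 in WT and 294, 332 and 282 in iEZR_CA, a log2 fold change of -2.76 ± 0.067 (SE; adjusted p = 2.1e-28, edgeR). Without the genes of chromosomes 8, 14, M and Y, 12 of 15 members were higher and 1 lower.

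The LIF and STAT3 pathway had 11 of 15 members tested higher and 0 lower, with a median of 0.61. The 3 largest differences were its receptor, kinase and transcription factor. Lifr, the LIF receptor (chromosome 15, 7090614 to 7197489), had 338, 349.9 and 361 normalized counts in WT and 1285, 1270.3 and 1320.2 in iEZR_CA. Stat3 had 292, 294 and 293 against 765, 731 and 731, a log2 fold change of 1.35 ± 0.056 (SE; adjusted p = 6e-32, edgeR). The kinase Jak2 had 208, 235 and 209.5 against 538, 508 and 526. The lines did not overlap in any of the 3. The medium at T48 held no LIF in either line. Socs3, a feedback inhibitor that STAT3 induces, was chosen after its values were seen and was not called, with a log2 fold change of 0.17 ± 0.13 (SE) and overlapping libraries.

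Genes shared by naive and formative cells moved less. Of 13 tested, 8 were higher and 3 lower, with a median of 0.17. The germ and stem cell RNA-binding gene Dppa5a had a log2 fold change of 1.10 ± 0.040 (SE) and Sox2 of 0.72 ± 0.034. Sox2 had 2511, 2579 and 2643 normalized counts in WT and 4167, 4111 and 4439 in iEZR_CA. Pou5f1 (Oct4) had 13720.0, 13103 and 12555 against 10773, 10898 and 10936, so it was lower by a small amount, -0.27 ± 0.028 (SE), a call that was lost with spike-in scaling (adjusted p = 0.18, edgeR). The RNA-binding repressor of let-7 maturation Lin28a fell by 0.73 ± 0.028 (SE) on the log2 scale relative to WT.

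Genes of the formative and post-implantation epiblast were mostly lower in iEZR_CA, with 17 of 21 lower, 8 of them beyond 2-fold, and 3 higher. The median was -0.53. The activin antagonist Fst had 596, 595 and 643 normalized counts in WT and 112, 97.7 and 106 in iEZR_CA, a log2 fold change of -2.54 ± 0.088 (SE; adjusted p = 1.9e-36, edgeR). The zinc finger gene Sall2 had 3845, 3973 and 4058 against 1071, 1011 and 940.1, and lies in the chromosome 14 stretch. Wnt8a, a WNT ligand of the early epiblast, had 784, 966 and 1105 against 344, 327 and 339. In each of these 3 genes every WT library was above every iEZR_CA library. The POU factor Pou3f1 had 12884, 11518 and 12661 against 6343, 5724 and 6096, a log2 fold change of -1.03 ± 0.089 (SE). Lef1, a transcription factor of the WNT pathway, was lower by less, at -0.65 ± 0.040 (SE).

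Members of the formative list did not all lie on the same side. Otx2, the homeobox factor that opens the formative programme, had 2227, 2023 and 2001 normalized counts in WT and 3434, 3513 and 3530.1 in iEZR_CA, a log2 fold change of 0.74 ± 0.041 (SE; adjusted p = 1.2e-19, edgeR). Tcf15 and the ETS factor Etv1 were the other members that were higher, at 0.62 ± 0.18 and 0.39 ± 0.058 (SE). Fgf5, the growth factor that marks the formative epiblast, had 1364, 1197 and 1114 against 1353, 1296 and 1359. Its libraries overlapped, and it was not called, with a log2 fold change of 0.12 ± 0.057 (SE; adjusted p = 0.06, edgeR). Without WT replicate 1 it was called, at 0.22 (adjusted p = 0.00073, edgeR).

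Early neural genes were mostly lower in iEZR_CA. Of 23 listed, 17 passed the filter on low counts, 11 were lower and 2 higher, with a median of -1.13. Map2, a microtubule-associated protein of neurons, had 370.2, 358 and 385 normalized counts in WT and 86.2, 90.0 and 89.9 in iEZR_CA. The adhesion molecule Ncam1 had a log2 fold change of -1.85 ± 0.078 (SE) and the neuronal tubulin Tubb3 of -1.53 ± 0.050, the latter on chromosome 8. Sox21 was higher, at 44.8, 61.2 and 58.1 in WT and 172, 186 and 209 in iEZR_CA, a log2 fold change of 1.82 ± 0.12 (SE; adjusted p = 9.3e-22, edgeR). Of 15 primitive streak and mesendoderm genes tested, 3 were higher and 2 lower. Eomes, a T-box factor of early mesendoderm, was the largest of them at 1.15 ± 0.10 (SE).

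**Figure D2:**
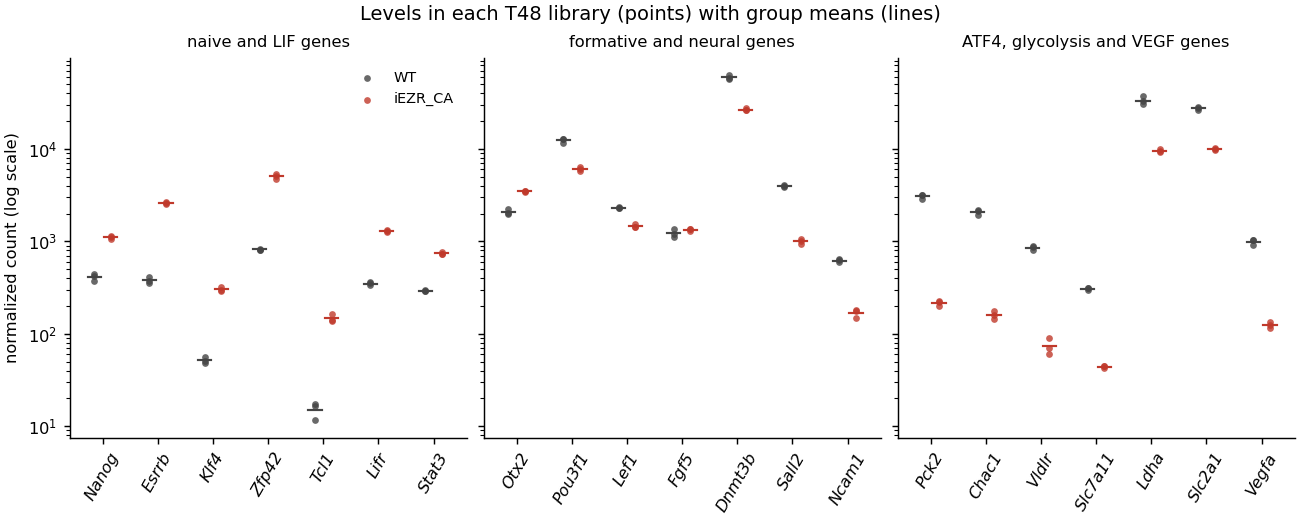
Normalized counts (vertical, log scale) of 21 genes in each of the 6 T48 libraries, WT in grey and iEZR_CA in red, with a point for each library and a short line at the mean of the 3. In the left panel every iEZR_CA library is above every WT library, in the right panel every one is below, and Fgf5 in the middle panel is the gene whose libraries overlap.

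The signals that act on the epiblast differed in their own ways. Of 19 Nodal and activin pathway genes tested, 13 were higher and 3 lower, with a median of 0.31. Lefty1, a secreted Nodal inhibitor that Nodal itself induces (chromosome 1, 180935022 to 180938400), had 355, 356 and 327 normalized counts in WT and 1104, 1087 and 1080.4 in iEZR_CA. The inhibitory SMAD gene Smad7 had a log2 fold change of 1.82 ± 0.15 (SE). Skil, a repressor of SMAD activity, was lower at -0.39 ± 0.055 (SE), as was Fst, the activin antagonist described above. Of 20 BMP pathway genes tested, 11 were higher and 5 lower, with a median of 0.20. The ligand Bmp4 had 56.4, 42.1 and 32.7 against 107, 113 and 102. Among the ID genes, which BMP induces and which block basic helix-loop-helix factors, Id3 was higher at 1.41 ± 0.13 and Id2 lower at -1.12 ± 0.091 (SE).

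Notch pathway genes leaned lower, with 12 of 19 tested lower, 5 higher and a median of -0.36. The target gene Hes1, a repressor, had 393, 302 and 423 normalized counts in WT and 85.3, 62.3 and 83.9 in iEZR_CA. Lfng, a glycosyltransferase that modifies Notch receptors, had 258, 321 and 258 against 72.8, 75.4 and 63.6. Rbpj, the DNA-binding factor of the pathway, went up, at 1702, 1633 and 1661 against 3951, 4002 and 4127. Of 28 WNT pathway genes tested, 9 were higher and 13 lower, with a median of -0.18. The secreted deacylase Notum, a WNT inhibitor and target, had 10.05, 5.74 and 14.7 against 150, 132 and 171, a log2 fold change of 3.72 ± 0.19 (SE; adjusted p = 1.1e-27, edgeR). The transcription factor Tcf7 was lower, at -0.80 ± 0.041 (SE).

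In the FGF and ERK pathway, ligands, receptors and adaptors were more often higher than lower, and genes that ERK induces more often lower. Of 19 FGF ligands, receptors and adaptors tested, 10 were higher and 3 lower, with a median of 0.30. Fgf4, the autocrine FGF of ES cells, had 3385, 2895 and 2886 normalized counts in WT and 4492, 4564 and 4702 in iEZR_CA, while Fgf15 was lower at -1.01 ± 0.12 (SE). Of 17 feedback inhibitors of ERK, 11 were lower, 5 of them beyond 2-fold, and 3 higher, with a median of -0.41. Spred3, an inhibitor of RAF activation, had 1429, 1480 and 1508 against 404, 348 and 378. The ERK phosphatase gene Dusp6 had 3786, 3746 and 3663 against 1497, 1627 and 1585, a log2 fold change of -1.24 ± 0.044 (SE; adjusted p = 5.5e-26, edgeR). Il17rd (Sef), which is on chromosome 14 outside the stretch described above, was higher at 0.86 ± 0.051 (SE). Of 22 immediate early and ETV genes tested, 14 were lower and 5 higher, with a median of -0.42. Egr1, an immediate early zinc finger factor, had 417, 461 and 517 against 205, 184 and 161. Epha2, an Eph receptor that ERK signalling induces in some cells, was higher at 570, 514 and 561 against 1666, 1663 and 1596. The ETS factor gene Etv4 was also higher, at 0.36 ± 0.033 (SE) with libraries that did not overlap, as was Etv1, given above.

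The amino acid and stress response that ATF4 controls showed the highest share of lower genes among the 46 lists. ATF4 is a transcription factor whose translation rises when eIF2α is phosphorylated, and its targets import and make amino acids. Of 26 members tested, 24 were lower (92.3%, beside 30.1% of all genes), 16 of them beyond 2-fold, and 2 were higher, with a median of -1.31. Pck2, the mitochondrial PEP carboxykinase, had 3188, 3161 and 2842 normalized counts in WT and 202, 221 and 229 in iEZR_CA, a log2 fold change of -3.81 ± 0.055 (SE; adjusted p = 9.6e-58, edgeR). It lies in the chromosome 14 stretch. Chac1, which breaks down glutathione, had 2162, 2141 and 1909 against 175, 162 and 143. Vldlr, a lipoprotein receptor, had 889, 878 and 796 against 61.1, 89.2 and 69.5. In all 3 genes the iEZR_CA libraries lay far under the WT libraries. The cystine transporter Slc7a11 had 296, 309.7 and 311 against 44.3, 42.3 and 44.4. The arginine and lysine transporter Slc7a3 was higher at 0.37 ± 0.030 and the transsulfuration enzyme Cbs at 0.17 ± 0.069 (SE), the latter with overlapping libraries and a call that was lost without WT replicate 1 or 3 or iEZR_CA replicate 2 or 3, at 0.11 to 0.15. Without the genes of chromosomes 8, 14, M and Y the median of the list was -1.23.

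The promoters of the 3 members with the largest falls are shown. Each holds the word of letters that ATF4 and its C/EBP partners are known to bind. They are from RefSeq on GRCm38.p6, run from 250 bases before to 50 after the annotated start, and capitals mark the match. Pck2 is at chr14:55540016-55540315, Chac1 at chr2:119350992-119351291 and Vldlr at chr19:27216770-27217069, all on the plus strand.
Pck2: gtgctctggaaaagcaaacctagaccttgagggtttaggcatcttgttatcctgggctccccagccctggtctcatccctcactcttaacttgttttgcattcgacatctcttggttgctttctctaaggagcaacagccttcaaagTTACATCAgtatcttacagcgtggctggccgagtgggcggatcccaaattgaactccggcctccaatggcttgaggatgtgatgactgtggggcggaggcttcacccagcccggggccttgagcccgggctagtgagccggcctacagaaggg
Chac1: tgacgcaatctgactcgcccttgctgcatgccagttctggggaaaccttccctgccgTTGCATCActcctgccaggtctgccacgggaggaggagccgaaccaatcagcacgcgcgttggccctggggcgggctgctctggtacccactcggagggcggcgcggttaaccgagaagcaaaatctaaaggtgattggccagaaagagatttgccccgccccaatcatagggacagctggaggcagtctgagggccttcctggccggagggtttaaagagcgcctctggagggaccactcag
Vldlr: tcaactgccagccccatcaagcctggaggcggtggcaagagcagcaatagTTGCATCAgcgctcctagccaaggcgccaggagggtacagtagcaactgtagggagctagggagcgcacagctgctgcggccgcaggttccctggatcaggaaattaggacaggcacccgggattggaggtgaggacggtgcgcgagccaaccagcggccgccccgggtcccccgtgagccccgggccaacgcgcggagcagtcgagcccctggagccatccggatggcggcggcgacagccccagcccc
The word searched was TGATGNAA on either strand, which reads TTNCATCA from the other strand, and it overlaps no other word searched. In Chac1 it began 193 bases before the start, in Pck2 103 and in Vldlr 200, all on the other strand. Vldlr has a second annotated promoter window, and that one held no match. Of the 23 listed genes that had a promoter in the table, 7 held the word: these 3 and Slc7a11, Asns, Nupr1 and Trib3. A listed gene with several windows was counted if any of them held the word. Counted by window instead, the word was found in 3.97% of all 32851 promoters and in 2.29% of the 15167 promoters of genes tested. The list was drawn up from genes that ATF4 controls, so its share of matches is not a test. A match describes the letters and not binding.

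Genes of the unfolded protein response of the endoplasmic reticulum gave 4 higher and 6 lower of 16 tested. Herpud1, which serves degradation of misfolded proteins, fell by 1.42 ± 0.059 (SE) on the log2 scale relative to WT and lies on chromosome 8. The transcription factor Xbp1 was higher, with 1352, 1348 and 1372 normalized counts in WT and 2024, 1970 and 2080.4 in iEZR_CA. The chaperones Hspa5 and Hsp90b1 were lower by less, at -0.29 ± 0.023 and -0.45 ± 0.026 (SE), the former not called with spike-in scaling. Of 16 NRF2 and metallothionein genes, 7 were higher and 7 lower.

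Glycolytic genes were lower in iEZR_CA in 17 of 23 members and higher in 4, with a median of -0.44. Ldha, the lactate dehydrogenase subunit (chromosome 7, 46841475 to 46855627), had 36981, 32661 and 30458 normalized counts in WT and 9893, 9524 and 9192 in iEZR_CA, a log2 fold change of -1.80 ± 0.063 (SE; adjusted p = 7.7e-12, edgeR). Slc2a1 (GLUT1), the common glucose transporter (chromosome 4, 119108711 to 119137983), had 28164, 27649 and 26683 against 10106, 9994 and 9636. Triose phosphate isomerase, Tpi1, was lower at -1.32 ± 0.067 (SE). The second glucose transporter Slc2a3 (GLUT3) had the opposite difference, at 6104, 5719 and 5438 against 12765, 13494 and 13199. The phosphofructokinase genes Pfkm and Pfkp were higher as well, at 0.83 ± 0.035 and 0.62 ± 0.044 (SE). Hypoxia targets outside glycolysis were split, with 7 higher and 8 lower of 20. Vegfa, the angiogenic growth factor, had 1023, 1031 and 907 against 125, 135 and 116, and the mTORC1 inhibitor Ddit4 fell by 1.60 ± 0.093 (SE) on the log2 scale relative to WT. Epas1, which encodes HIF2α, was higher at 1.76 ± 0.055 (SE).

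Messenger RNAs of the mitochondrial genome were higher in 11 of 13 members and lower in 0, with a median of 0.42. The largest difference was in mt-Cytb, the cytochrome b of complex III, at 11337, 11346 and 14299 normalized counts in WT and 17311, 18919 and 20453 in iEZR_CA. WT replicate 3 was the highest WT library and still lay under the iEZR_CA libraries. The 79 nuclear genes of the respiratory chain gave 19 higher and 23 lower. Cholesterol synthesis genes were higher in 20 of 24 members and lower in 2, with a median of 0.37, and most of these differences were small. Ebp, the sterol isomerase, had 158, 128 and 173 against 413, 358 and 394, and Nsdhl, a sterol dehydrogenase, had a log2 fold change of 0.98 ± 0.041 (SE). The members that were lower were the squalene synthase Fdft1, which is in the chromosome 14 stretch, at -0.68 ± 0.033 and Hmgcs1 at -0.14 ± 0.025 (SE), the latter not called with spike-in scaling.

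Among the 18 ERM proteins and their partners, 12 were higher and 4 lower, with a median of 0.27. The scaffold Slc9a3r2 (NHERF2), which anchors ERM proteins to membrane transporters, had 376, 373 and 398 normalized counts in WT and 749, 756 and 747 in iEZR_CA. Nf2 (merlin), the ERM relative that acts in the Hippo pathway, had 3831, 3843 and 3827 against 6641, 6649 and 6579. Cd44, a hyaluronan receptor whose tail binds ERM proteins, had 91.97, 101 and 113 against 11.7, 8.46 and 8.39, a log2 fold change of -3.39 ± 0.22 (SE; adjusted p = 1.3e-21, edgeR). Of the paralogues of ezrin, named after their values were seen, moesin (Msn) was higher at 0.52 ± 0.037 (SE) and radixin (Rdx) was not called, at 0.03 ± 0.028 (SE) with overlapping libraries. Of 8 class I myosins, which also link membrane to actin, 3 were higher and 3 lower, and Myo1f was the largest at 1.07 ± 0.12 (SE).

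Endocytosis and Rab genes were higher in 24 of 32 members tested and lower in 3, with a median of 0.20. Most of these differences were small, and with libraries scaled to the spike-in RNA 13 were higher and 0 lower. Cltb, the clathrin light chain b, had 196, 189 and 204 normalized counts in WT and 775, 754 and 787 in iEZR_CA. The early recycling GTPase Rab4a and the coated-pit nucleator Fcho1, both on chromosome 8, had log2 fold changes of 0.92 ± 0.053 and 0.90 ± 0.056 (SE). The clathrin heavy chain Cltc was lower at -0.31 ± 0.027 (SE), though not called with spike-in scaling. Of 12 genes of caveolae and membrane tension sensing tested, 6 were higher and 2 lower, and the scramblase gene Plscr1 led them at 1.2 ± 0.059 (SE).

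Targets of SRF and YAP, factors that respond to actin and to cell spreading, were lower in 12 of 20 members tested and higher in 5, with a median of -0.46. The actin-binding calponin Cnn1 had 209, 205 and 229.97 normalized counts in WT and 22.6, 24.6 and 16.8 in iEZR_CA. The myosin light chain Myl9 had 602, 558 and 574 against 104, 103 and 121, and Tead2, a DNA-binding partner of YAP, fell by 1.12 ± 0.033 (SE) on the log2 scale relative to WT. Ccn1 (Cyr61), a secreted YAP target, was higher at 0.98 ± 0.072 (SE). Fibroblast markers moved with this group, since their sum was 634 to 702 in WT and 361 to 441 in iEZR_CA, with Col1a1, Col1a2, Thy1 and Acta2 lower and Dcn higher. The markers were not alike in level. Postn had 0 counts in all 6 libraries and Lum and Col3a1 at most 13 and 8 counts. By contrast, Dcn had 127 to 472 counts, Thy1 17 to 170 and Col1a2 9 to 258. Their part in the difference was not tested.

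Adhesion genes differed in both directions. Of 24 cadherin and epithelial-mesenchymal genes tested, 5 were higher and 13 lower, with a median of -0.24. P-cadherin, Cdh3, had 764, 809 and 728 normalized counts in WT and 5032, 4969 and 5241 in iEZR_CA and lies on chromosome 8. The claudin Cldn7 of tight junctions had 307, 289 and 235 against 54.4, 41.5 and 49.2. The paired repressors of epithelial genes moved in opposite directions, with Zeb1 higher at 2.17 ± 0.080 and Zeb2 lower at -1.29 ± 0.10 (SE). Of 30 integrin and matrix genes tested, 17 were higher and 11 lower, with a median of 0.37. Among laminin chains, Lamc1 was higher at 1.27 ± 0.042 while Lamb1 and Lama1 were lower at -1.45 ± 0.037 and -1.35 ± 0.078 (SE). The basement membrane linker Nid1 and the integrin subunit Itgav were higher at 1.79 ± 0.066 and 1.37 ± 0.045 (SE).

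Eph receptors and ephrins, which signal between touching cells, gave 5 higher and 9 lower of 19 tested. Epha1 (chromosome 6, 42358487 to 42373268) had 2453, 2600.3 and 2527 normalized counts in WT and 226, 203 and 198 in iEZR_CA, a log2 fold change of -3.58 ± 0.059 (SE; adjusted p = 7.2e-55, edgeR). Ephb1 had 171, 151 and 169 against 31.8, 24.6 and 24.0. Epha2, given above, was higher, so members of the family lay on both sides.

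Writers and erasers of DNA methylation gave 10 higher and 3 lower of 17. The de novo methyltransferase Dnmt3b, which is high in the formative state, had 62554, 58912 and 57412 normalized counts in WT and 27703, 26226 and 26118 in iEZR_CA, a log2 fold change of -1.15 ± 0.029 (SE; adjusted p = 6.8e-29, edgeR). Its cofactor Dnmt3l had 5696, 6166 and 6290.2 against 16710.0, 17085 and 17202. The dioxygenase gene Tet2 was higher at 1.35 ± 0.075 and Tet3 lower at -0.90 ± 0.061 (SE). Of 30 germline genes that DNA methylation silences, 14 were higher and 12 lower, with a median of 0.19. Tex19.2, tied to the control of retrotransposons, was higher at 2.21 ± 0.14 and Tdrd1, of the piRNA pathway, lower at -2.25 ± 0.13 (SE). Of 29 imprinted genes tested, 10 were higher and 13 lower. The noncoding RNA H19 had 426, 472 and 430.5 against 1726, 1979 and 1993, and the amino acid transporter Slc38a4 had 1924, 1843 and 1852 against 7935, 7994 and 8064. Phlda2 and Grb10, which restrain growth, were lower at -2.69 ± 0.13 and -2.20 ± 0.040 (SE).

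Genes of other early lineages differed in both directions. Of 14 trophoblast genes tested, 7 were higher and 6 lower. The factor Gata3 had 13.9, 19.12 and 15.5 normalized counts in WT and 174, 189 and 204 in iEZR_CA, and the X-linked homeobox gene Esx1 had 16.2, 22.9 and 25.4 against 144, 152 and 163. The keratins Krt18 and Krt8 were lower at -1.16 ± 0.082 and -0.71 ± 0.13 (SE). Of 18 primitive endoderm genes tested, 5 were higher and 9 lower, with a median of -0.49, and this list shares its laminin chains with the matrix genes above.

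Cell cycle and growth genes showed a change among the D-type cyclins, which carry cells through G1. Of 19 G1 cyclins and CDK inhibitors, 11 were higher and 7 lower, with a median of 0.36. Ccnd2 had 279, 323 and 339.6 normalized counts in WT and 25.1, 43.1 and 37.2 in iEZR_CA, Ccnd1 was lower at -0.76 ± 0.030 (SE), and Ccnd3 was higher at 0.84 ± 0.034 (SE). The 16 members of the MYC network gave 3 higher and 8 lower, with a median of -0.11, and Mycl, Myc and Mycn were lower at -1.09 ± 0.063, -0.69 ± 0.056 and -0.59 ± 0.032 (SE). Of 11 LIN28 and oncofetal RNA-binding genes, 6 were lower and 0 higher, with a median of -0.30. Lin28b, the paralogue of Lin28a, had 2178, 2076 and 2202 against 611, 600.1 and 603.

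Most of the remaining lists were close to the background or divided. Of 82 cytosolic ribosomal protein genes, 14 were higher and 24 lower. The 28 Polycomb genes gave 11 higher and 10 lower, the 20 p53 targets 8 and 7, the 24 TFE3, folliculin and lysosome genes 9 and 11, and the 18 interferon and MHC class I genes 7 and 7. The retinoic acid list leaned lower. Of 17 members tested, 4 were higher and 9 lower (52.9%, beside 30.1% of all genes), with a median of -0.33. Of 39 HOX genes, 24 passed the filter, 7 were higher and 5 lower. Of 7 PRAME-like genes tested 4 were higher and 2 lower, and of 9 2-cell-like genes tested 0 were higher and 2 lower, and families of near-identical genes such as these are uncertain in read counts. The sign of the median changed with the processing in the PRAME-like, HOX, 2-cell-like, trophoblast, primitive streak, ribosomal protein, respiratory chain, class I myosin, unfolded protein response, NRF2, p53, Polycomb and interferon lists, so no direction is given for them.

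**Figure D3:**
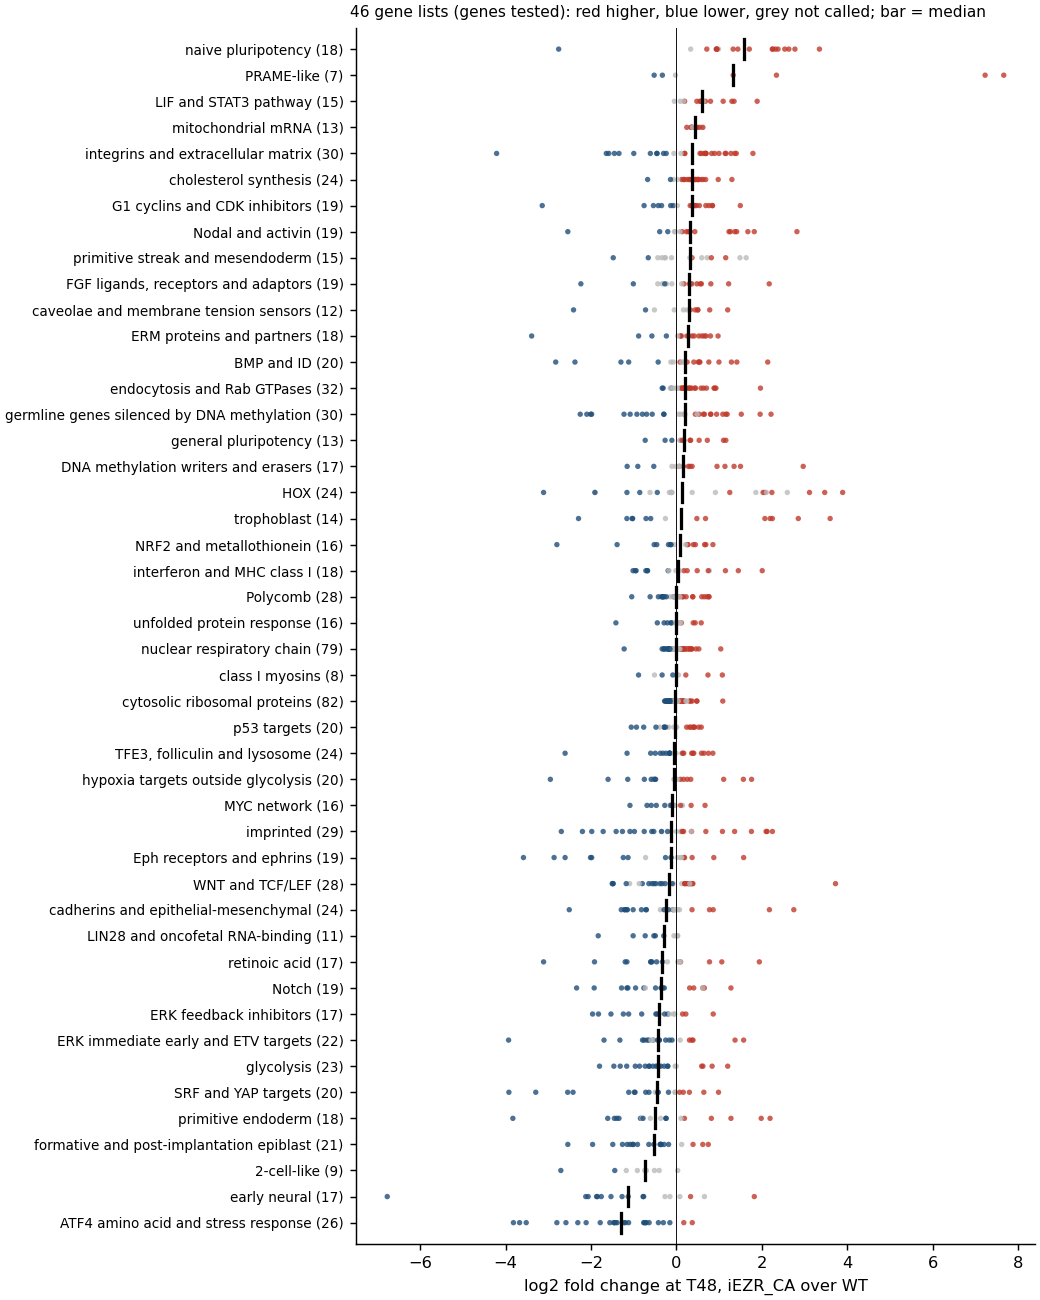
Log2 fold change of iEZR_CA over WT at T48 (horizontal) for the members of 46 gene lists (vertical, number tested in brackets), a point for each member, red where higher, blue where lower and grey where not called, with a black bar at the median. The naive list has its median at 1.57 and the LIF list at 0.61, and at the other end the ATF4 list has its median at -1.31 and the early neural list at -1.13; the PRAME-like list, second by its median, is among those whose median changes sign with the processing.

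Predicted genes and pseudogenes were left out of the ranking of single genes. Among the other genes with a mean of at least 100 normalized counts, the largest differences lay mostly outside the lists. Mid1, a ubiquitin ligase on the X chromosome (169685199 to 170005736), had 30.1, 24.9 and 28.6 normalized counts in WT and 1076, 1045 and 1106 in iEZR_CA, a log2 fold change of 5.23 ± 0.094 (SE) at T48 and 6.95 in ESCs. Smyd1, a methyltransferase known from muscle (chromosome 6, 71213940 to 71322233), had 47.9, 88.0 and 60.6 against 1226, 1308 and 1336. The autophagy receptor Calcoco2 (chromosome 11, 96099326 to 96111964) had 45.6, 34.4 and 45.8 against 659, 743 and 829.8. The membrane peptidase Mme (chromosome 3, 63241537 to 63386030) had 65.7, 93.7 and 87.6 against 1135, 1263 and 1303. The other rises among the 15 largest were Ptprtos, Fam169b, Adgre5 (on chromosome 8), Sstr5, Gprc5a, Cldn2, Gata3, Rcsd1, Arhgdib, Robo4 and Laptm5, between 4.63 and 3.14. Ptprtos is annotated as an antisense transcript, and since the strand setting of the counting is not given in the sources used here, its reads and those of the gene on the other strand cannot be told apart.

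After Hprt, the largest fall in this ranking was in Fut1, a fucosyltransferase (chromosome 7, 45617289 to 45621059). It had 259, 258 and 233 normalized counts in WT and 9.20, 4.62 and 5.995 in iEZR_CA. The cyclic AMP phosphodiesterase Pde4b had 354, 325 and 364 against 12.5, 12.3 and 7.19. The sialyltransferase St8sia3 had 202, 218 and 211 against 4.18, 14.6 and 3.60. The noncoding RNA Xist, which silences an X chromosome in female cells, had 641, 679 and 835 against 66.9, 50.01 and 65.9. The others of the 15 largest falls were Col1a2, Zfp658, Pck2, Serpinf1, Chst1, Hrk, Chac1, Epha1, Miat and Vldlr, between -4.21 and -3.52. Chosen after its values were seen, Ftl2-ps, a processed ferritin pseudogene, was at 12.3 in WT and 4773 in iEZR_CA while Ftl1 was lower at -1.39 ± 0.10 (SE), and reads of such near-identical copies cannot be placed with certainty.

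The differences at T48 were then set beside those in ESCs, which came from libraries that the T48 comparison did not use. In ESCs 2198 genes (11.9%) were called beyond 2-fold. Of the 1446 genes higher beyond 2-fold at T48, 395 were so in ESCs too, which is 27.3% of the T48 genes and 38.2% of the 1033 ESC genes. Of the 1524 lower ones, 433 were so in ESCs, 28.4% of the T48 genes and 37.2% of the 1165 ESC genes. Another 491 of the higher genes (34.0%) and 741 of the lower genes (48.6%) were not called in ESCs at any fold. For comparison, 10058 of all 18469 genes tested were called in ESCs, and the others were not. Across the 18469 genes, the log2 fold changes at both stages had a Pearson r of 0.411 and a Spearman rho of 0.363, given as a description since genes are not independent. The difference between the lines at T48 was itself unlike that in ESCs, by the test of the interaction, in 8452 genes (45.8%).

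Named lists took different places in this comparison. In the naive list, 16 of 18 members were further up at T48 than in ESCs and 1 further down by the interaction test, and the ESC median was -0.11. In the LIF list the counts were 13 and 1 of 15, with an ESC median of 0.03. In the ATF4 list 22 of 26 were further down and 2 further up, with an ESC median of -0.40, and in glycolysis 15 of 23 were further down and 7 further up. The cholesterol list had a median of 0.39 in ESCs and 0.37 at T48. Of 21 formative genes, 13 were lower and 6 higher in ESCs, where 10058 of the 18469 genes tested were called, and the ESC median was -0.83. Dnmt3a and Dnmt3b were higher there, at 0.61 and 0.21. Fgf5 was near the floor there, at a mean of 6.16 normalized counts in WT and 0.93 in iEZR_CA. By the interaction test, 7 of the 21 were further up at T48 and 5 further down. For SRF and YAP targets 14 of 20 were further down and 4 further up, with an ESC median of 0.07. Of 17 ERK feedback inhibitors, 10 were already lower in ESCs and 4 higher, with a median of -0.31 there. By the interaction test, 7 of them were further down at T48 and 4 further up. Of 22 immediate early and ETV genes, 9 were lower and 4 higher in ESCs, with a median of -0.15. Of these, 7 were further down at T48 and 6 further up.

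**Figure D4:**
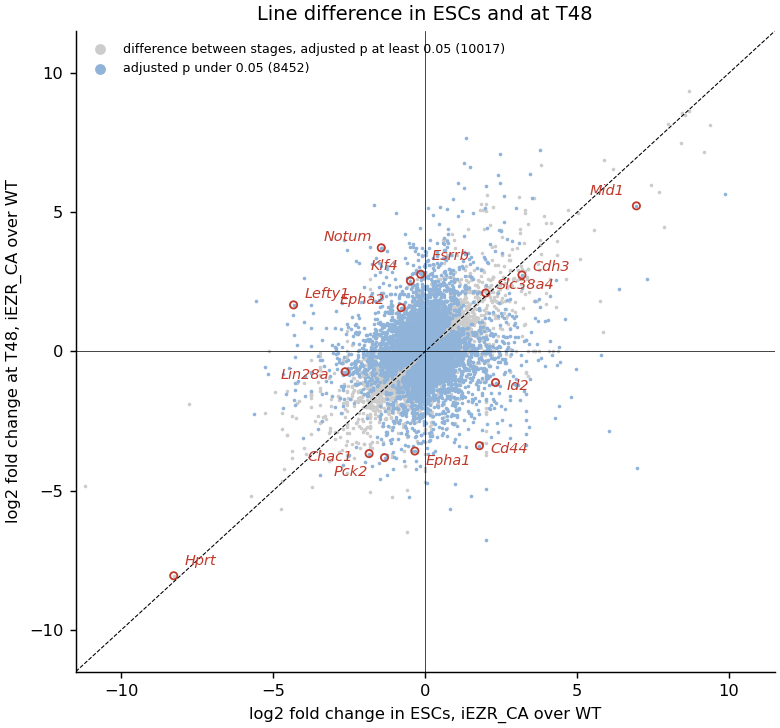
Log2 fold change of iEZR_CA over WT at T48 (vertical) against the same in ESCs (horizontal), a point for each of 18469 genes, with a dashed line of equal values. Blue points are the 8452 genes whose difference at T48 was unlike that in ESCs; Hprt, Cdh3 and Slc38a4 lie near the line, and Lefty1, Notum, Id2 and Cd44 lie in the quadrants where the sign turned.

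The levels of single genes along exit show how these differences lay in time. Chac1 had a mean of 285 ± 16.0 normalized counts in WT ESCs, 137 ± 5.16 at T24 and 2071 ± 141 at T48 (SD, n = 3), whereas iEZR_CA had 79.4 ± 4.70, 66.8 ± 6.72 and 160 ± 16.1. The level of Chac1 at T48 thus stood above that of either earlier stage by a wide margin in WT and by a small one in iEZR_CA. Slc2a1 had 3326 ± 37.3, 5393 ± 187 and 27499 ± 752 in WT and 3742 ± 50.1, 4745 ± 54.7 and 9912 ± 245 in iEZR_CA. Epha1 had 14.8 ± 0.436, 92.5 ± 14.3 and 2527 ± 73.7 against 11.9 ± 2.25, 24.9 ± 2.97 and 209 ± 14.9. Both genes had their highest mean at T48 in each line, with the larger step in WT. Pck2 differed, at 2313 ± 44.9, 619.5 ± 55.1 and 3063 ± 193 in WT against 919.8 ± 14.1, 444 ± 16.9 and 217 ± 14.1 in iEZR_CA, where T48 was the lowest stage.

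Other genes turned over. Lefty1 had 255 ± 26.5 normalized counts in WT ESCs, 718 ± 24.5 at T24 and 346 ± 16.5 at T48, whereas iEZR_CA had 12.2 ± 1.79, 601 ± 121 and 1091 ± 12.2. Its log2 fold change was -4.33 in ESCs and 1.67 at T48. Epha2 was highest at T24 in both lines, at 6611 ± 95.3 in WT and 4250 ± 72.0 in iEZR_CA, and its fold change also turned, from -0.79 in ESCs to 1.57 at T48. Cd44 was higher in ESCs at 1.78 and lower at T48 at -3.39. Slc38a4 and Cdh3 were higher at both stages, at 1.99 and 3.18 in ESCs and 2.10 and 2.75 at T48.

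**Figure D5:**
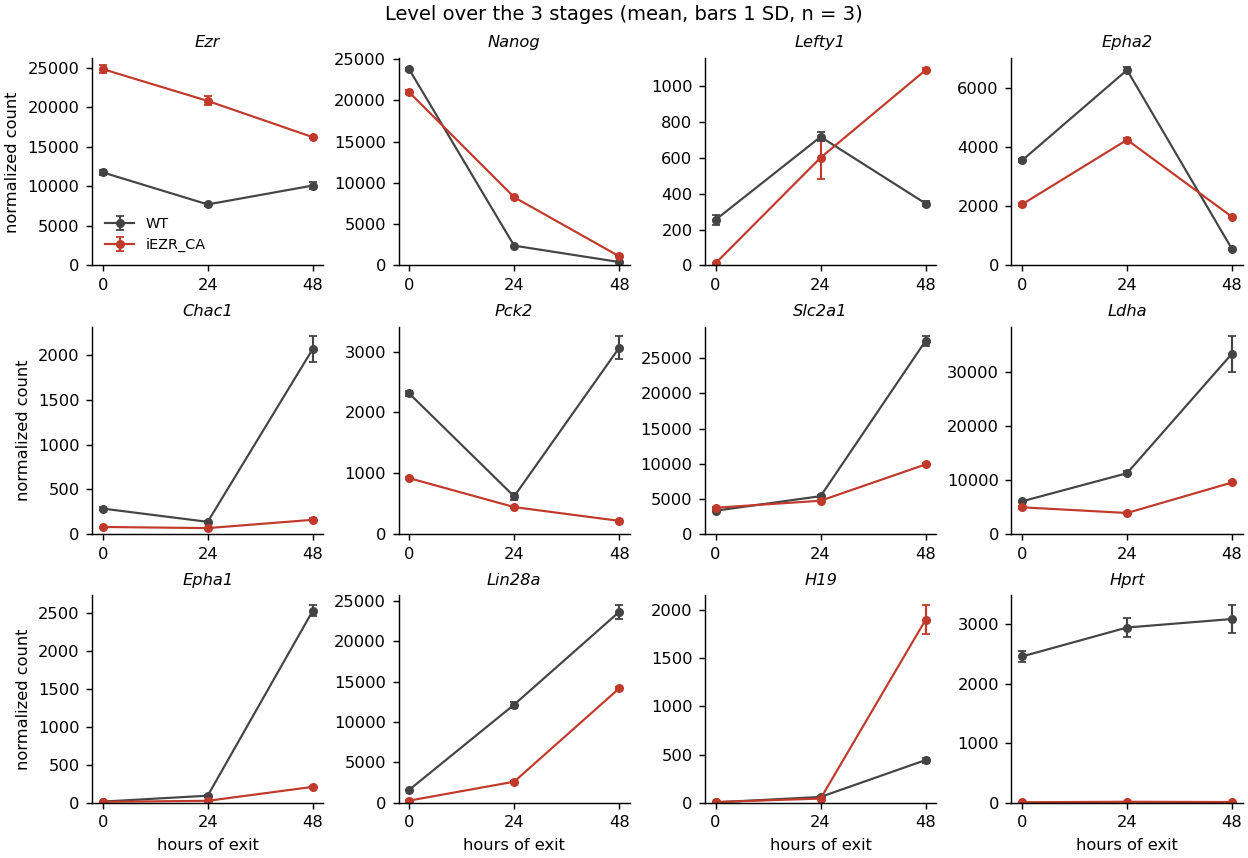
Mean normalized count (vertical, linear scale from 0) against hours of exit (0 for ESC, 24 and 48) for 12 genes, with bars of 1 SD over the 3 libraries of each line, WT in grey and iEZR_CA in red. Chac1, Slc2a1, Ldha and Epha1 have their highest WT mean at 48 h, while the lines of Lefty1 and Epha2 cross between 24 and 48 h and Hprt stays near 0 in iEZR_CA.

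Genes were last sorted by what WT cells did in the first 24 h of exit, again from libraries outside the comparison. Between WT ESC and WT T24, 1928 genes (10.4%) fell beyond 2-fold and 1912 (10.4%) rose beyond 2-fold. Of those that fell, 35.4% were higher and 21.5% lower in iEZR_CA at T48, with a median log2 fold change of 0.21. Of those that rose, 30.4% were higher and 41.7% lower, with a median of -0.17. The 14629 other genes gave 30.5% and 29.7%, with a median of 0.00 to the second decimal. Beyond 2-fold the shares were 18.7% higher and 12% lower among genes that fell, and 16.0% higher and 21.4% lower among genes that rose. Among the other genes they were 5.33% higher and 6.04% lower.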

How the data were processed

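RNA of mouse ES cells was measured in 18 libraries (2 lines, 3 stages, 3 libraries each) by polyA RNA-seq with spike-in RNA. Per the submitters' processing notes and the study's methods, the authors trimmed reads with Trim Galore 0.6.5, aligned them with GSNAP (2015-09-29) to mm10 and counted them with HTSeq against Ensembl release 81; whether counting used strand is not given in the sources used here. The deposited table holds raw counts for 53801 genes, 92 spike-in sequences and the HTSeq summary rows, which were kept out of library sizes and tests. In the T48 libraries the summary rows held 13.6% to 14.09% of reads not aligned, 3.71% to 4.63% in no feature and 4.64% to 4.75% ambiguous, and spike-ins 0.575% to 0.874%. Gene positions came from GENCODE M21 (GRCm38), which held 53706 of the identifiers.

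Counts were fitted with edgeR 4.0.16 (R 4.3.3) jointly across the 18 libraries, a coefficient per group for 6 groups, TMM scaling, edgeR's default filter and its robust quasi-likelihood test, and p-values were adjusted over 18469 genes. Normalized counts use DESeq2 1.42.0 size factors. The step was tested on simulated data. The contrasts were iEZR_CA against WT at T48, the same in ESCs, their difference, and WT T24 against WT ESC. Genes were named from 12 set genes, the 15 largest rises and falls, and the 3 largest rises and falls of each of 46 lists. The 15 were called genes with a mean of at least 100 normalized counts and no overlap of the lines. Predicted genes and pseudogenes were left out of these 15. The 3 of a list were called members with a mean of at least 50. Genes outside this are said to be so, and those in promoter matches were named for the match. A few genes the rule names are not reported here. The comparison, its members and the lists were chosen with earlier results of these data known. Lists are described by counts and medians, without a test of the list. Pairs of replicates differed by more than sampling noise (chi-square per degree of freedom 1.61 to 3.45). Alternatives were DESeq2's test, its size factors, spike-in scaling, other filters, only the T48 libraries, and leaving out each library.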

Additional observations from a re-analysis of the deposited data

Results flagged for a closer look

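Results are listed here for 2 reasons: the difference between the lines turned direction between ESCs and T48 and passed edgeR's interaction test (Benjamini-Hochberg adjusted p under 0.05), or a category of reads outside the gene counts was higher in iEZR_CA than in WT. Values for genes are the log2 fold change at T48 minus that in ESCs.

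Among genes that were lower at T48 and higher in ESCs, the ERM-binding receptor Cd44 had a value of -5.17, the piRNA pathway gene Tdrd1 -4.01, the PDZ scaffold Pdzk1 -3.78, the cystine transporter Slc7a11 -3.50, the helix-loop-helix inhibitor Id2 -3.43, the neuronal gene Map2 -3.19 and the surface marker Thy1 -3.16. Fst followed at -2.81, Wnt8a at -2.71, the laminin chain Lama1 at -2.37, and the keratins Krt8 and Krt18 at -2.29 and -2.12. Smaller values of this direction were found in Slc2a1 (-1.63), the lysosomal GTPase gene Rragd (-1.45), Dnmt3b (-1.37), Pmaip1 (-1.40), the asparagine synthetase gene Asns (-0.91) and E-cadherin, Cdh1 (-0.63).

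Among genes that were higher at T48 and lower in ESCs, the Nodal inhibitor Lefty1 had a value of 6.0, the WNT inhibitor Notum 5.17 and the trophoblast gene Esx1 3.95. The naive factors Klf4, Esrrb and Nanog had values of 3.02, 2.92 and 1.62, and Sox2 and Dppa5a 1.04 and 1.33. Eomes, which responds to Nodal, had 1.71. Genes at the membrane included the myosin Myo1f (2.56), Epha2 (2.36), the clathrin light chain Cltb (2.19), the scaffold Slc9a3r2 (1.96), the glucose transporter Slc2a3 (1.48) and the amino acid transporter Slc7a3 (1.15). The transcription factors Tcf15, Sox21, Rarg, Irf1 and En2 had 2.43, 2.07, 1.82, 1.26 and 1.11. The phosphofructokinase gene Pfkp had 1.34, the ribosomal protein retrogene Rpl10l 1.19 and Fgf4 0.79. The T48 calls of Rarg and Cdh1 did not hold throughout. That of Rarg (0.10) was lost when any T48 library was left out, at 0.08 to 0.11. It was also lost with DESeq2's size factors, at 0.09, and with spike-in scaling, at 0.15. That of Cdh1 was lost without iEZR_CA replicate 3, at -0.06. It was also lost with spike-in scaling, at -0.03, and without a filter on low counts, at -0.05.

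Of reads that gave no gene count, the median share in the iEZR_CA T48 libraries was 14.08% not aligned, 0.943% of low alignment quality and 0.165% not uniquely aligned, and in each case the 3 iEZR_CA libraries were above the 3 WT libraries of T48.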

How the results depend on the processing

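No paired analysis was possible because the labels give no replicate numbers. The count of genes called at T48 was 11282, and 7229 with libraries scaled to the spike-in RNA, and the count of lower ones was 5555 and 3200; with that scaling the count of genes whose difference at T48 was unlike that in ESCs went from 8452 to 3881 and the count called in ESCs from 10058 to 5506. The scaling moved the median of all genes by 0.04 on the log2 scale. A stricter filter of 10 or more counts in each library compared, which tests fewer genes, gave 1605 genes called beyond 2-fold (2970 in the main count), 696 higher and 909 lower, and 1652 genes that changed beyond 2-fold in WT over the first 24 h (3840 in the main count). The cause of the other changes was not tested. DESeq2 called 10403 genes at T48, and without the genes of chromosomes 8, 14, M and Y, an alternative added after seeing the data, 10181 were called and 2645 beyond 2-fold. Leaving out each T48 library gave 10480 to 11031 called genes, 5238 to 5608 higher, 5242 to 5423 lower, 2907 to 3097 beyond 2-fold (1367 to 1500 higher, 1512 to 1614 lower) and 8023 to 8234 unlike ESCs, and an Ezr ratio of 1.57 to 1.64 with an exact p of 0.2, the smallest then possible. Of 2078 values for 174 of the genes named, tried under each alternative, 0 values turned direction. In 23 values of 8 genes (Pou5f1, Sall4, Cbs, Hmgcs1, Rarg, Cdh1, Cltc and Hspa5) the call was lost. In 5 values the call was gained: in Fgf5 without a filter (0.15), with the stricter filter (0.13) and without WT replicate 1 (0.22), and in Utf1 without a filter (0.12) and with only the T48 libraries in the fit (0.09). Genes near 10 counts carry wide errors at these depths. Several things limit what the comparison says of ezrin. They are the doxycycline given to a single line, the RNA differences in the chromosome 14 stretch and Hprt, and the unstated origin of the line as clone or pool.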

Other observations

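Values of genes not described above came from the same rule for naming. Among the p53 targets, the pro-apoptotic gene Pmaip1 (Noxa) was lower in iEZR_CA at T48, at a log2 fold change of -1.06 ± 0.037 (SE), and the nuclease gene Aen and the CDK inhibitor Cdkn1a were higher at 0.58 ± 0.030 and 0.43 ± 0.036. Hrk, another pro-apoptotic BCL2 family gene, was among the 15 largest falls at -3.70 ± 0.15 (SE). Among Polycomb genes, Suz12, a core subunit of PRC2, was higher at 0.76 ± 0.028 and Phc2, of PRC1, lower at -1.05 ± 0.049 (SE).

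In the lysosomal list, the autophagy receptor Sqstm1 was higher at 0.85 ± 0.028 (SE), as was the lysosomal enzyme gene Ctsd at 0.64 ± 0.042, while Rragd was lower at -1.16 ± 0.035 and the factor Tfe3 at -0.50 ± 0.029 (SE). Among retinoic acid genes, the nuclear receptor Rxra was higher at 0.77 ± 0.055 and its relative Rxrg lower at -1.92 ± 0.15 (SE). Among interferon and MHC class I genes, Rsad2 and Stat2 were higher at 1.15 ± 0.18 and 0.74 ± 0.062, and the peptide transporter Tap1 was lower at -1.02 ± 0.095 (SE).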
